A study of Mus musculus with 16 samples.

Results

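T and NK cell signalling was followed through 9 genes in the bone of mice whose ovaries had been removed (ovariectomy) and of mice that had a sham operation. The 9 genes are Cd3d, Cd3e, Cd3g and Cd247, the signalling chains of the T cell receptor, Lck and Zap70, its kinases, Lat, its adaptor, and Nkg7 and Gzma of cytotoxic granules. They were chosen by name, with earlier results of these data known. All 9 were found among the 25239 genes of the RNA table, as was 1 peak among the 13083 peaks of the table of N6-methyladenosine (m6A, a methylated base inside RNA molecules). There were 16 libraries of wild type bone in 4 groups of 4, IP and input libraries of ovariectomized mice (titled OVX) and IP and input libraries of sham-operated mice (titled NC). IP libraries were made from RNA enriched with an m6A antibody, and input libraries from the unenriched RNA. The treatment label reads ovariectomy for all 8 IP libraries, the 4 titled NC included, and the title was followed. The labels give no age, strain or time after surgery and do not tie libraries to animals, so the spread behind the p-values may be partly technical.

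When a T cell receptor meets its ligand, Lck phosphorylates paired tyrosines in the tails of the CD3 chains and of the zeta chain that Cd247 encodes. Zap70 then docks on these tails and phosphorylates Lat, the membrane scaffold on which further enzymes gather. NK cells lack a T cell receptor but use the zeta chain, Zap70 and Lat beneath several of their own receptors. In marrow, T and NK cells are a small part of a tissue dominated by granulocyte, red cell and B cell precursors.

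Of the 9 genes, Lck alone passed in the authors' deposited table, where an adjusted p under 0.05 was the threshold, and no gene of the receptor complex itself did. The 1 call of 9 stands beside 1875 calls among all 15396 tested genes, or 12.2%, in the authors' deposited table. Among the 7462 tested genes with mean counts in the range of the 9, the share was also 12.2%. The share of members called is thus close to the background. By sign, 5 of the 9 were positive and 4 negative in the authors' deposited table, with a median log2 fold change of 0.01 beside -0.02 over all tested genes. The 2 tables hold 1 value per gene or peak for the comparison of the arms and none per library, and they do not say which arm is the numerator. Signs are therefore given as deposited, and none is read as higher or lower after ovariectomy.

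Lck, the only member called, is transcribed in the mouse from a pair of promoters, an outer (distal) one and an inner (proximal) one, and the RNA table counts both together. RefSeq (GRCm38.p6) places these starts 15269 bases apart on the minus strand of chromosome 4. Cd3g and Cd3d, which were not called, start 1355 bases apart on opposite strands of chromosome 9 and point away from each other. The sequences before these starts, of the called gene and of a receptor gene pair that was not called, are shown as description. No link between sequence and call was tested. Each window holds up to 250 bases upstream of the start, 5′ to 3′ on the gene's own strand, and the window of Cd3d was shortened by 17 bases that lie inside the gene's annotated span. Capitals mark the ETS core GGAAGT or its reverse complement ACTTCC, a motif of the ETS factors that T cell genes commonly use.
Lck outer start, chr4:129573642-129573891, minus strand: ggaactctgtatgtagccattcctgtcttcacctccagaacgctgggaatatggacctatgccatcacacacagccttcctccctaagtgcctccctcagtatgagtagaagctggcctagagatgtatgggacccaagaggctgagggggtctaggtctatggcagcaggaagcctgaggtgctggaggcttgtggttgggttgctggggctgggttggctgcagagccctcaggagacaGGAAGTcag
Lck inner start, chr4:129558373-129558622, minus strand: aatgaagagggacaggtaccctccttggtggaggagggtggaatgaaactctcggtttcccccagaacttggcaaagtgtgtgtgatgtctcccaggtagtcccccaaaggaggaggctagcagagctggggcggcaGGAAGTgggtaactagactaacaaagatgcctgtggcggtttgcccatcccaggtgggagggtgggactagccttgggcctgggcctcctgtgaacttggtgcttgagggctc
Cd3g, chr9:44980432-44980681, minus strand: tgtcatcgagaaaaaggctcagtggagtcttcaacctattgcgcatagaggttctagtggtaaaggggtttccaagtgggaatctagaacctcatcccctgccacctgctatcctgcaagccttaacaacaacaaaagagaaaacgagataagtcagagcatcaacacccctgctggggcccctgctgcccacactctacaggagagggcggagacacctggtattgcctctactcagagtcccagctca
Cd3d, chr9:44981536-44981768, plus strand: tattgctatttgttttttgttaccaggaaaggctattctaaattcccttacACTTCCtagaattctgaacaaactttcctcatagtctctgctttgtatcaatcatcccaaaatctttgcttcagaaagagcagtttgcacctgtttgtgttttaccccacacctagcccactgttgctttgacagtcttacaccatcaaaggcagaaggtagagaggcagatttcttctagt

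Both Lck windows held 1 ETS core, 9 bases before the outer start and 113 bases before the inner one, counted to its first base. Cd3d held 1 core 199 bases before its start, and these letters did not occur in the Cd3g window. RefSeq listed 12 starts for the 9 genes, and 6 of their 12 windows of 250 bases held the core on either strand, belonging to Lck, Zap70, Cd3d, Cd3e and Cd247. Of all 32851 RefSeq windows of that length, 19.7% held it. The E-box CACCTG or CAGGTG, bound by E proteins, occurred in 7 of the 12 windows and in 17.2% of all windows. The RUNX core TGTGGT or ACCACA occurred in 4 of the 12 and in 14.0% of all. The motifs were chosen after the sequences were seen, several windows belong to 1 gene, and a match is no evidence of binding.

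The receptor chains gave small values of mixed sign. Cd3e, which pairs with both Cd3d and Cd3g, had a mean normalized count of 296 in the authors' deposited table and a log2 fold change of -0.20 ± 0.16 (SE), with an adjusted p of 0.467 by its Wald test. Cd3g stood at -0.17 ± 0.18 with a mean count of 447 (adjusted p = 0.596), and Cd3d at 0.03 ± 0.16 with a mean count of 223 (adjusted p = 0.943), in the authors' deposited table by the same Wald test. These 3 genes lie close together on chromosome 9. Cd247, whose product carries more of the paired tyrosines than any CD3 chain, stood at -0.20 ± 0.14 with a mean count of 375 (adjusted p = 0.375 by the Wald test) in the authors' deposited table. All 4 intervals of 95% computed from these values spanned 0. As a ratio between the arms, Cd3d lay between 0.815 and 1.27 and Cd247 between 0.720 and 1.05. The gene span of Cd247 overlaps that of Pou2f1, a transcription factor gene with a mean count of 1750 in the authors' deposited table and a log2 fold change of 0.44 ± 0.34, and whether counting used strand is not given in the sources used here. Reads in that overlap could have been assigned to either gene.

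Of the kinases and the adaptor, Lck differed between the arms and Zap70 and Lat did not pass the threshold. Lck, the Src family kinase that starts the cascade, had a mean count of 744 in the authors' deposited table and a log2 fold change of 0.39 ± 0.13, with an adjusted p of 0.0249 by the Wald test. That corresponds to a ratio of 1.31 between the arms, with a 95% interval of 1.10 to 1.55. With its SE, a fold change of 0.35 would have been needed to pass, so Lck lay just beyond the threshold, and 1309 tested genes had a smaller p. Zap70, the kinase that docks on the phosphorylated chains, stood at 0.03 ± 0.16 with a mean count of 266 (adjusted p = 0.932 by the Wald test) in the authors' deposited table. Lat had the highest mean count of the 9, 1753, and stood at 0.21 ± 0.15 (adjusted p = 0.411 by the Wald test) in the authors' deposited table. The interval for Lat as a ratio ran from 0.938 to 1.42 and overlapped that of Lck from 1.10 to 1.42, and the difference between the 2 genes was not tested.

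The cytotoxic granule genes did not pass. Nkg7, a granule membrane protein of NK and cytotoxic T cells, stood at -0.25 ± 0.23 with a mean count of 315 (adjusted p = 0.518 by the Wald test) in the authors' deposited table. Gzma, the protease granzyme A, had the lowest mean count of the 9, 107, and stood at 0.01 ± 0.35 (adjusted p = 0.991 by the Wald test) in the authors' deposited table. Its value was closest to 0 of the 9 but its interval was the widest, with ratios of 0.630 to 1.61.

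**Figure D1:**
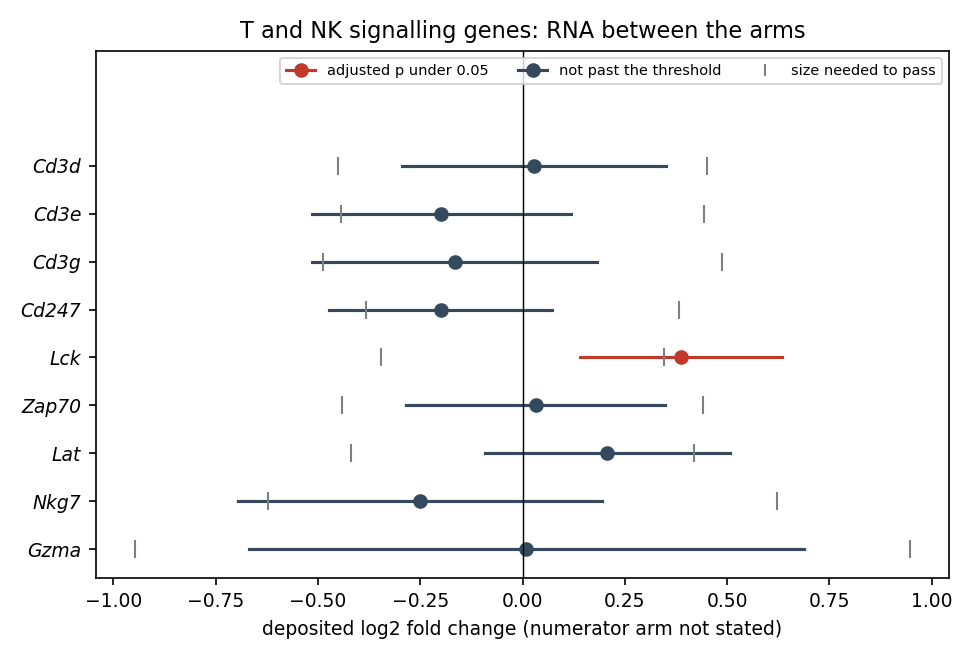
Deposited log2 fold change of each gene (x axis, numerator arm not stated) with its 95% interval, in red where the adjusted p is under 0.05, and grey ticks at the size that would have passed. Only the interval of Lck, from 0.14 to 0.63, does not span 0, while the point for Gzma sits at 0.01 inside the widest interval.

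The precision of these values differed between the genes. In mean count they ran from Gzma, whose mean count exceeded that of 18.0% of tested genes, to Lat, which exceeded 66.5%. Together they held 0.0104% of the summed mean counts. Counting error alone, with 4 libraries in each arm, would give Gzma an SE of 0.0985 and Lck one of 0.0374, against 0.35 and 0.13 in the authors' deposited table. The deposited SEs of both genes were thus larger than counting error alone would give, and the cause of the added spread was not tested. Compared with the 500 genes nearest in mean count, Zap70 and Cd3d were among the steadier genes, with 14.0% and 14.6% of their neighbours having a smaller SE. Lat, Nkg7 and Gzma were less steady, with 64.8%, 63.6% and 63.0% of neighbours below them. The fold change needed to pass ran from 0.35 for Lck and 0.38 for Cd247 to 0.62 for Nkg7 and 0.95 for Gzma, the last being a ratio of 1.93. With its SE, a smaller observed fold change in Gzma would not have passed.

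**Figure D2:**
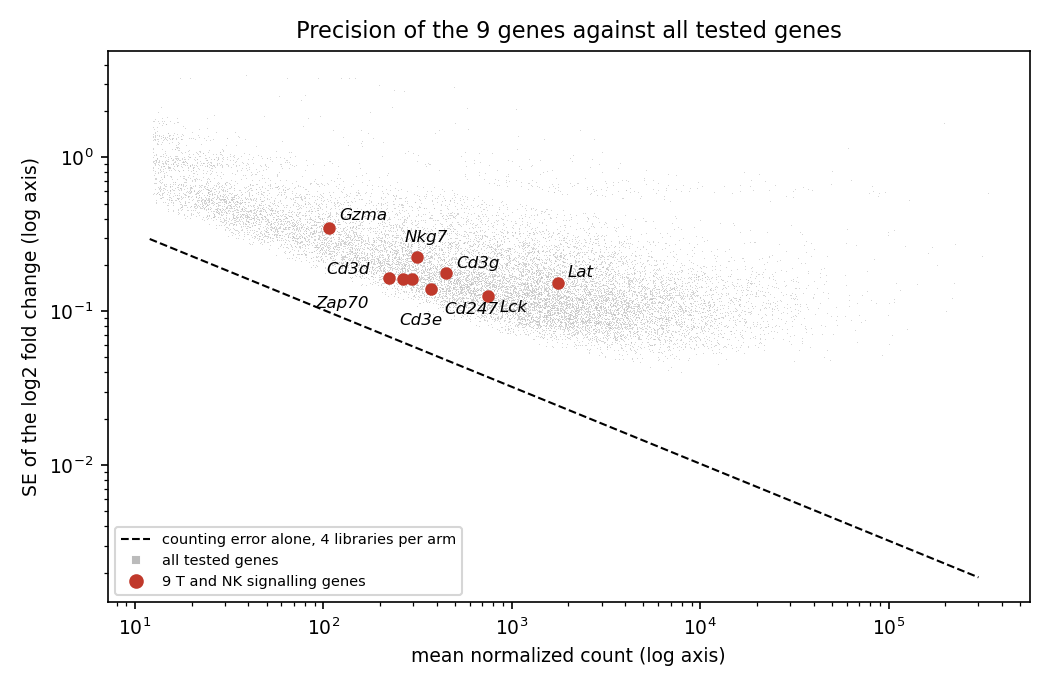
SE of the log2 fold change (y axis) against the mean normalized count (x axis), both on log axes, for all 15396 tested genes in grey and the 9 genes in red, with the SE that counting error alone would give as a dashed line. All 9 lie above the line, Gzma at a count of 107 with an SE of 0.35 and Lck at 744 with 0.13.

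Around the 9 genes, 6 lists of other T and NK genes gave few calls. They held 99 genes, of which 98 were tested, and 8 of these passed, 5 positive and 3 negative, or 8.16% beside the 12.2% of all tested genes, in the authors' deposited table. Of all tested genes, 6.07% were called positive and 6.11% negative. Mean counts in these lists reached 32190, in Ptpn6, against 1753 at most among the 9 genes. Which cells supplied the RNA of the listed genes cannot be told in bulk bone. Ifng, the interferon of NK and T helper cells, was listed with a mean count of 4.27 and had no adjusted p in the authors' deposited table.

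Among 15 surface receptors and coreceptors of T cells, Il7r alone was called, at 0.89 ± 0.18 (adjusted p = 8.3e-05 by the Wald test) in the authors' deposited table. It encodes the interleukin-7 receptor chain, which B cell precursors carry as well as T cells. In the authors' deposited table the coreceptors Cd4, Cd8a and Cd8b1 had 0.29 ± 0.33, -0.21 ± 0.23 and -0.03 ± 0.27, none past the threshold. The list had 8 positive and 7 negative members and a median of 0.004. Over all tested genes the share called was 12.2%.

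Of 20 other kinases, adaptors and enzymes next to the receptor, Sh2d2a alone was called, at 0.91 ± 0.29 (adjusted p = 0.0202 by the Wald test) in the authors' deposited table. It encodes an adaptor that binds Lck. Fyn, the other Src family kinase of T cells, stood at -0.02 ± 0.08 in the authors' deposited table and did not pass the threshold. Among 16 negative regulators, Csk alone was called, at 0.41 ± 0.08 (adjusted p = 4.3e-05 by the Wald test) in the authors' deposited table. Csk is the kinase that holds Lck inactive through a tyrosine in its tail, and it is expressed in most blood cells. Its mean count of 8993 was above that of any of the 9 genes, and the gene length was not taken into account. The medians of these lists were 0.09 each. Each list thus had 1 call, where 12.2% of all tested genes were called.

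Of 16 cytotoxic granule and secretion genes, none of the 15 tested was called and none had an unadjusted p under 0.05 in the authors' deposited table. No other tool could be run on these tables. Ccl5, a chemokine stored with the granules, had -0.36 ± 0.21, and Prf1, the pore former perforin, had 0.34 ± 0.21 in the authors' deposited table. These were the smallest p-values of that list, with opposite signs. Among 16 NK receptors and adaptors, Klrk1 was called, at -0.58 ± 0.19 (adjusted p = 0.0263 by the Wald test) in the authors' deposited table. Klrk1 is NKG2D, an activating receptor of NK cells and of some T cells. Of that list 12 members were negative and 4 positive, with a median of -0.18 beside -0.02 over all tested genes. Klrk1 was its only call, where 12.2% of all tested genes were called. The NK cell markers Ncr1 (NKp46) and Klrb1c had opposite signs, -0.18 ± 0.26 and 0.22 ± 0.28 in the authors' deposited table, neither past the threshold.

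The transcription factors gave 4 calls among 16, with 2 of each sign, where 12.2% of all tested genes were called. Lef1, which acts in T and B cell precursors, had 1.32 ± 0.19 (adjusted p = 1.8e-09), and Ets1, an ETS factor of lymphocytes, had 0.30 ± 0.06 (adjusted p = 1.8e-04), both by the Wald test in the authors' deposited table. Gata3, a factor of helper T cells and innate lymphoid cells that other tissues also express, had -1.46 ± 0.43 (adjusted p = 0.0106) by the Wald test in the authors' deposited table. Tcf7 and Bcl11b, which set T cell identity, had -0.29 ± 0.17 and -0.33 ± 0.26 in the authors' deposited table, neither past the threshold.

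Markers of B cells and of muscle gave larger values, in lists chosen with earlier results of these data known. Of all tested genes, 12.2% were called. All 15 B cell precursor genes were positive and 13 were called in the authors' deposited table, with a median of 1.13. By smallest p the first were Dntt at 2.34 ± 0.24, Vpreb1 at 2.53 ± 0.32, Blnk at 1.13 ± 0.15 and Syk at 0.63 ± 0.09 in the authors' deposited table. All 10 mature B cell genes were positive and 2 were called, Fcrla at 1.05 ± 0.24 and Spib at 1.26 ± 0.29, in the authors' deposited table, with a median of 0.42. Lck, Zap70 and Il7r can also be expressed in B lineage cells, and Lat in platelets and mast cells. Of 10 platelet genes 9 were positive and Vwf alone was called, at 0.41 ± 0.13 in the authors' deposited table (median 0.31). The platelet markers Pf4, Ppbp and Itga2b had 0.26 ± 0.21, 0.33 ± 0.22 and 0.27 ± 0.18 there, none past the threshold. Of 10 mast cell and basophil genes 9 were tested and none was called in the authors' deposited table. There 3 were positive and 6 negative, with a median of -0.01. An unadjusted p under 0.05 was seen for 2 of them, Ms4a2 at -2.21 ± 0.89 and Cma1 at -2.40 ± 1.14 with a mean count of only 17.2. No gene of these 4 lists had a mean count of 0, and summed levels per arm are not given by the table. The part of these cells in the value of Lck was not tested. In bulk RNA, fewer cells of a type and less RNA per cell cannot be told apart.

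The tissue label could be checked against its markers. Col1a1 and Bglap of osteoblasts were present with mean counts of 99870 and 1093 in the authors' deposited table. Both were called there, Col1a1 at 1.12 ± 0.32 and Bglap at 1.08 ± 0.34 in the authors' deposited table. Neutrophil genes held 1.73% of all mean counts, with 0 of 12 called and 0 at an unadjusted p under 0.05, the smallest p being those of Mmp9 at -0.27 ± 0.16 and Ngp at -0.34 ± 0.23, in the authors' deposited table. The 12 skeletal muscle genes held 2.29% of all mean counts and were all negative, with Myh1 at -1.62 ± 0.52, Atp2a1 at -1.81 ± 0.64 and Actn3 at -1.54 ± 0.55 called in the authors' deposited table. Muscle transcripts were thus present in these bone libraries, and their part in the values above was not tested. The share called over all tested genes was 12.2%.

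**Figure D3:**
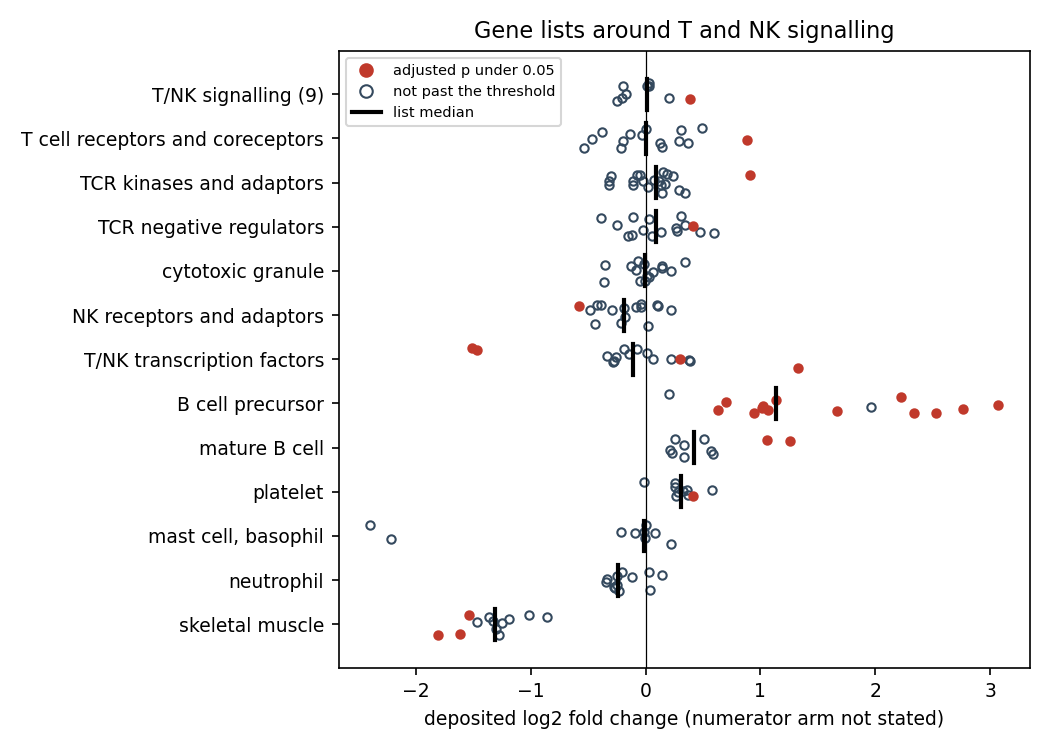
Deposited log2 fold change (x axis, numerator arm not stated) of each tested gene in the 9 genes, the 6 wider T and NK lists and 6 lists of other cells, filled red where the adjusted p is under 0.05, with list medians as black bars. The 9 genes lie between -0.25 and 0.39, while the B cell precursor genes lie between 0.20 and 3.07.

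On the m6A side, only Cd247 of the 9 genes carried a peak. Of the 7462 tested genes with mean counts in the range of the 9, 41.1% carried at least 1 peak, and transcript length was not taken into account. The Cd247 peak lay on the plus strand at chr1:165855257-165859230, counted from 1 in the build of the peak table, in which 12998 of the 13024 peaks with a symbol in RefSeq GRCm38.p6 (99.8%) lay inside the gene of that name. It was made of 5 exon blocks of 13, 57, 81, 36 and 12 bases, 199 exonic bases over 3974 bases of genome. Such a layout was uncommon, since 442 of all 13083 peaks (3.38%) had 5 or more blocks. It covered the stretch from 82.6% to 86.9% of the way along the RefSeq span of the gene, toward its 3′ end, and ended 5920 bases before the span of Pou2f1 began. The RefSeq sequences used here cover promoters only, so the sequence of the peak is not shown.

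The Cd247 peak was enriched 2.33 times over input in the authors' deposited table, with a log10 p of -8.04 and a log10 false discovery rate (FDR) of -7.64. Of all peaks, 80.8% had a lower enrichment, and the median was 1.82. Its log2 difference between the arms was 0.16 with a log10 p of -0.505, a p of 0.313, in the authors' deposited table, and so it was not called. Across all peaks 4.92% had a difference p under 0.05 and 0.0229% an FDR under 0.05 in the authors' deposited table. The RNA of the same gene had -0.20 ± 0.14 in the authors' deposited table. Neither value passed, and the numerator may differ between the tables.

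Of the 99 genes in the wider lists, 48 carried 92 peaks. Of these peaks, 6 had a difference p under 0.05 in the authors' deposited table, beside 4.92% of all peaks. None of the 6 had an FDR under 0.05. The 6 peaks were in Runx3 at -1.10, Grap2 at 0.70, Lax1 at -0.44, Vav1 at 0.17, Ptprc at 0.17 and Ptpn6 at 0.14. These are log2 differences in the authors' deposited table, with p from 0.0214 to 0.0324. Each of these genes carried another peak that did not pass, with a difference p from 0.119 in Lax1 to 0.635 in Ptpn6. Runx3 is a factor of cytotoxic T cells, Grap2 an adaptor that links Lat to its partners, and Vav1 an exchange factor in the same complex. Ptprc and Ptpn6 are phosphatases that act on the receptor kinases, and Lax1 is a membrane adaptor that dampens the signal. The RNA of these 6 genes was not called in the authors' deposited table. Of the kinases and adaptors next to the receptor, 15 of 20 genes carried a peak, against 4 of 16 cytotoxic granule genes and 5 of 16 NK receptors and adaptors. Of all tested genes, 44.3% carried a peak. The difference between lists was not tested, and mean counts and gene lengths differ between them.

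**Figure D4:**
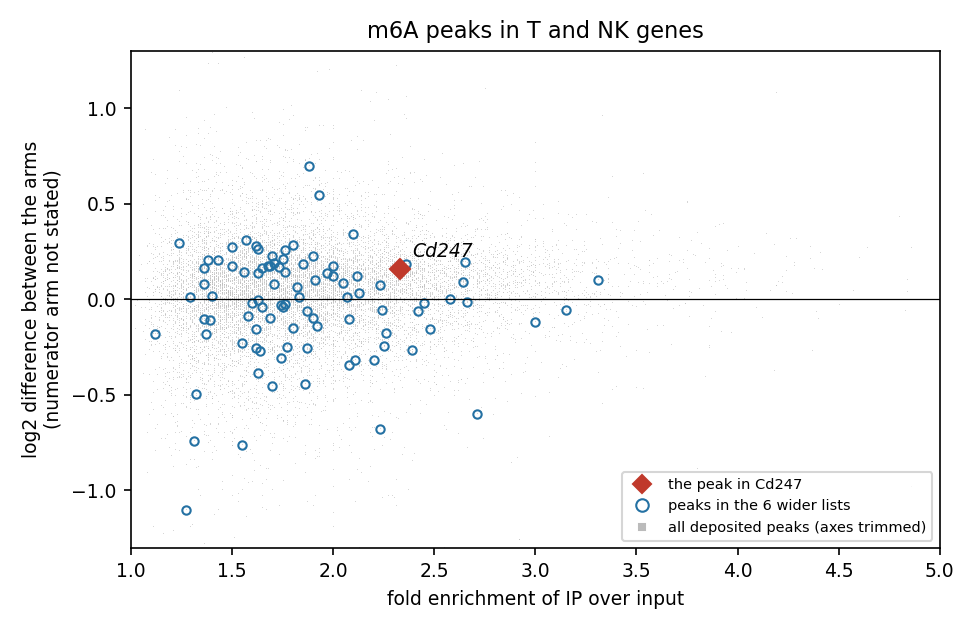
Fold enrichment of IP over input (x axis) against the log2 difference between the arms (y axis, numerator arm not stated) for the Cd247 peak (red diamond), the 92 peaks of the wider lists (blue circles) and all deposited peaks (grey, axes trimmed). The Cd247 peak sits at 2.33 and 0.16, inside the cloud, and the lowest circle is a Runx3 peak at -1.10.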

How the data were processed

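Input and IP libraries of mouse bone were grouped by title. Per the labels' protocols the kit was stranded and used unique molecular identifiers; HISAT2, StringTie and DESeq are listed in the submitters' processing notes, with the rat build rn6 and no roles or versions, and the peak caller is not given in the sources used here. Per the file headers the authors deposited, in the RNA table, a mean of counts divided by size factors (a signal), log2 fold changes with SE, a Wald score, p-values and adjusted p-values. Per the file headers the peak table holds, as deposited, a p-value per peak, log10 values, the fold enrichment as a ratio, log2 differences between the arms and their log10 p and FDR, treated as a score. Recomputed Wald p-values and Benjamini-Hochberg values over 15396 genes equalled those deposited (largest difference 4.3e-15). No per-library test was possible, so the planned count model was not fitted and depth per library is unknown. Intervals are ± 1.96 SE. Peak starts were moved to count from 1, because in all 13083 peaks the exon blocks ended at end minus start.

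The 9 genes and all gene lists were chosen with earlier results of these data known. All 9 genes and their peaks are named, with up to 4 called genes by smallest p of each list, or its 2 smallest p where none was called, and called peaks of the T and NK lists. One gene named by this rule is left out of the text. Cd4, Cd8a, Ncr1, Klrb1c, Cpa3, Mcpt8, Pf4, Ppbp and Itga2b came from planned lists of cell type markers. Not all markers of those lists are named, and those named were picked after their values were seen. Other genes named beyond this rule were chosen after their values were seen: Fyn, Cd8b1, Tcf7, Bcl11b, Ifng, Tpsb2, Pou2f1, Col1a1 and Bglap. Promoter sequences are from RefSeq (GRCm38.p6). Alternatives changed the p threshold, the genes adjusted over, the centring and the peak cutoffs. Python 3.11.15, numpy 2.4.6, pandas 2.3.3, scipy 1.17.1 and matplotlib 3.10.9 were used, and the adjustment was tested on simulated data.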

Additional observations from a re-analysis of the deposited data

How the results depend on the processing

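At an adjusted p under 0.01 the calls among the 9 genes went to 0, and those of the TCR kinases and adaptors and of the NK receptors also to 0, while the transcription factors had 2, as the calls over all tested genes went to 882 of the 1875 at 0.05. At an adjusted p under 0.1 there were 2 calls each among the T cell receptors and coreceptors, the TCR kinases and adaptors and the negative regulators, with 2727 over all tested genes. The other 40 values recomputed under an alternative changed no sign of a member's fold change and moved no count by over 1.5 times. Lck had adjusted p-values of 0.0249 as deposited, 0.0302 over every gene with a p, 0.0227 and 0.0214 over genes with mean counts of at least 50 and 200, and 0.0159 and 0.0091 after centring on the median and on the weighted mean, by the Wald test. The Cd247 peak remained at enrichment minimums of 1.5 and 2. No paired analysis was possible because the tables hold no value per library, and for the same reason leaving out replicates and DESeq2 were not run. Motif counts in the peak were not run either. Counts of single libraries, and with them the depth behind each arm, are unknown.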

Other observations

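The kinases and adaptors of the T cell receptor have close relatives in B cells. Those named here were chosen after their values were seen. Among Src family kinases, Blk, the B cell member, was called beside Lck and had 0.78 ± 0.25 (adjusted p = 0.0249 by the Wald test) in the authors' deposited table. Lyn, Fgr, Src, Fyn and Yes1 had 0.22 ± 0.09, -0.09 ± 0.17, 0.31 ± 0.16, -0.02 ± 0.08 and -0.49 ± 0.29 in the authors' deposited table, none of them called. That made 2 called of the 7 Src family genes named, beside 12.2% of all tested genes. Syk, the relative of Zap70, had 0.63 ± 0.09, and Blnk, the B cell counterpart of Lcp2, had 1.13 ± 0.15 in the authors' deposited table. Zap70 and Lcp2 had 0.03 ± 0.16 and 0.02 ± 0.16, and Lat2, the relative of Lat, had 0.04 ± 0.09 in the authors' deposited table. Btk, a kinase of the B cell receptor pathway, had 0.20 ± 0.10 in the authors' deposited table and was not called. The difference within each pair was not tested.

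Some receptors of activated or migrating lymphocytes, also chosen after their values were seen, were called, where 12.2% of all tested genes were called. Il2ra, the high-affinity interleukin-2 receptor chain, had 1.13 ± 0.31, Ccr7, a lymph node homing receptor, had 0.88 ± 0.19, and Cd69, an early activation marker, had 0.58 ± 0.18 in the authors' deposited table. Il18r1 and Il18rap, the interleukin-18 receptor chains, had -0.59 ± 0.09 and -0.66 ± 0.13 in the authors' deposited table. Other blood cells express these genes too. Il18r1 and Il18rap had mean counts of 1092 and 4506. Of other lymphocyte receptors, Cd27, Cd28 and Icos had 0.49 ± 0.34, 0.14 ± 0.21 and 0.31 ± 0.57, none of them called. Pdcd1 and Ctla4, at 0.60 ± 0.40 and -0.39 ± 0.38 in the authors' deposited table, were not called either.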
